A study of Sus scrofa with 12 samples.

Results

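Tight junctions are the seals that close the space between neighbouring epithelial cells of the gut. Claudins are the membrane proteins that form the strands of the junction. Sealing claudins (CLDN1, CLDN3, CLDN4, CLDN7) tighten the strands, whereas pore-forming claudins (CLDN2, CLDN15) make channels for small ions and water. Occludin (OCLN) and junctional adhesion molecule A (F11R) are further membrane proteins of the junction, and zonula occludens 1 (TJP1) is the scaffold that ties them to the actin cytoskeleton. In piglets, weaning is known as a period in which the intestinal barrier is weakened.

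The 9 genes named above were looked up among the 17049 gene names of the expression table, and 6 of them were matched. CLDN1, CLDN4 and F11R were found by name, and CLDN7 (ENSSSCG00000017934), OCLN (ENSSSCG00000021514) and TJP1 (ENSSSCG00000004854) by their Ensembl identifiers, because the table lists these 3 under identifiers in place of symbols. CLDN2, CLDN3 and CLDN15 matched no row by name or identifier, although 1 row of uncertain name, ENSSSCG00000021536, lies where RefSeq places CLDN3 and is described with the other claudins. The matched claudins were thus all sealing claudins, and sealing and pore-forming claudins could not be compared.

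RNA-seq of jejunum was carried out on 12 piglets in 4 groups of 3. W_Con and PW_Con were piglets of sows on a corn-soybean meal diet, taken at 21 days of age on the day of weaning (sucking piglets) and at 28 days of age, 7 days after weaning (weaned piglets). W_Res and PW_Res were piglets of the same ages from sows whose diet held 300 mg/kg resveratrol, a plant polyphenol, through gestation and lactation. All piglets were weaned at 21 days, and the resveratrol was given to the sows. The sample records describe Landrace semen and piglets left in the nursing pens after weaning, whereas the paper, which uses the control libraries, describes Yorkshire × Duroc litters moved to a nursing room. The labels do not say which piglets were littermates, and age and weaning cannot be told apart in this design.

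Values are FPKM, fragments scaled to exon length and mapped reads, so that genes and libraries can be set side by side. FPKM keep no read numbers, and the counting error of a gene was not computed from them. The jejunum label was checked against marker genes. FABP6, the ileal bile acid binding protein that marks distal small intestine, ranged from 1.70 to 24110 FPKM and was above 1000 FPKM in 7 of 12 libraries, including all 3 PW_Con libraries and 1 PW_Res library. It was 8055, 1231 and 9.10 FPKM in W_Con, 6518 to 9621 in PW_Con, 12.2 to 6146 in W_Res and 1.70 to 24110 in PW_Res. This marker of gut segment thus differed within and between groups. The part of gut segment in every group difference below, weaning in control litters included, was not tested. B cell genes stood apart in PW_Con replicate 2, with 37.5 FPKM for CD79B and 8.10 for MS4A1, against at most 4.13 and 0.986 in the other libraries. The summed level of 5 smooth muscle markers was 540 to 2657 FPKM in W_Res and 130 to 498 FPKM in the other 3 groups. The summed level of 6 epithelial markers was 1429 to 1537 FPKM in W_Con, 2299 to 2830 in PW_Con, 1106 to 1898 in W_Res and 2044 to 3760 in PW_Res. KRT8 and KRT19 made up most of that sum, and the other 4 markers (EPCAM, ELF3, ESRP1 and CDH17) summed to 309 to 381 FPKM in W_Con, 324 to 423 in PW_Con, 216 to 346 in W_Res and 363 to 388 in PW_Res, which overlapped between the ages in control litters and not in resveratrol litters. In whole tissue, fewer cells of a type and less RNA per cell cannot be told apart.

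The 6 genes covered a wide range of levels. On the FPKM scale, CLDN7 had the highest mean over the 12 libraries (223 FPKM), followed by F11R (85.3), CLDN4 (39.8), OCLN (16.1), TJP1 (15.8) and CLDN1 (0.175). CLDN7 was above F11R in 12 of 12 libraries, F11R above CLDN4 in 11 and CLDN4 above OCLN in 10. OCLN was above TJP1 in 6 of 12 libraries, so the order of these neighbours was not separated. CLDN4 was the most variable of the 5 genes above the detection filter (coefficient of variation 85.6%), and TJP1 the least variable (13.7%).

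**Figure D1:**
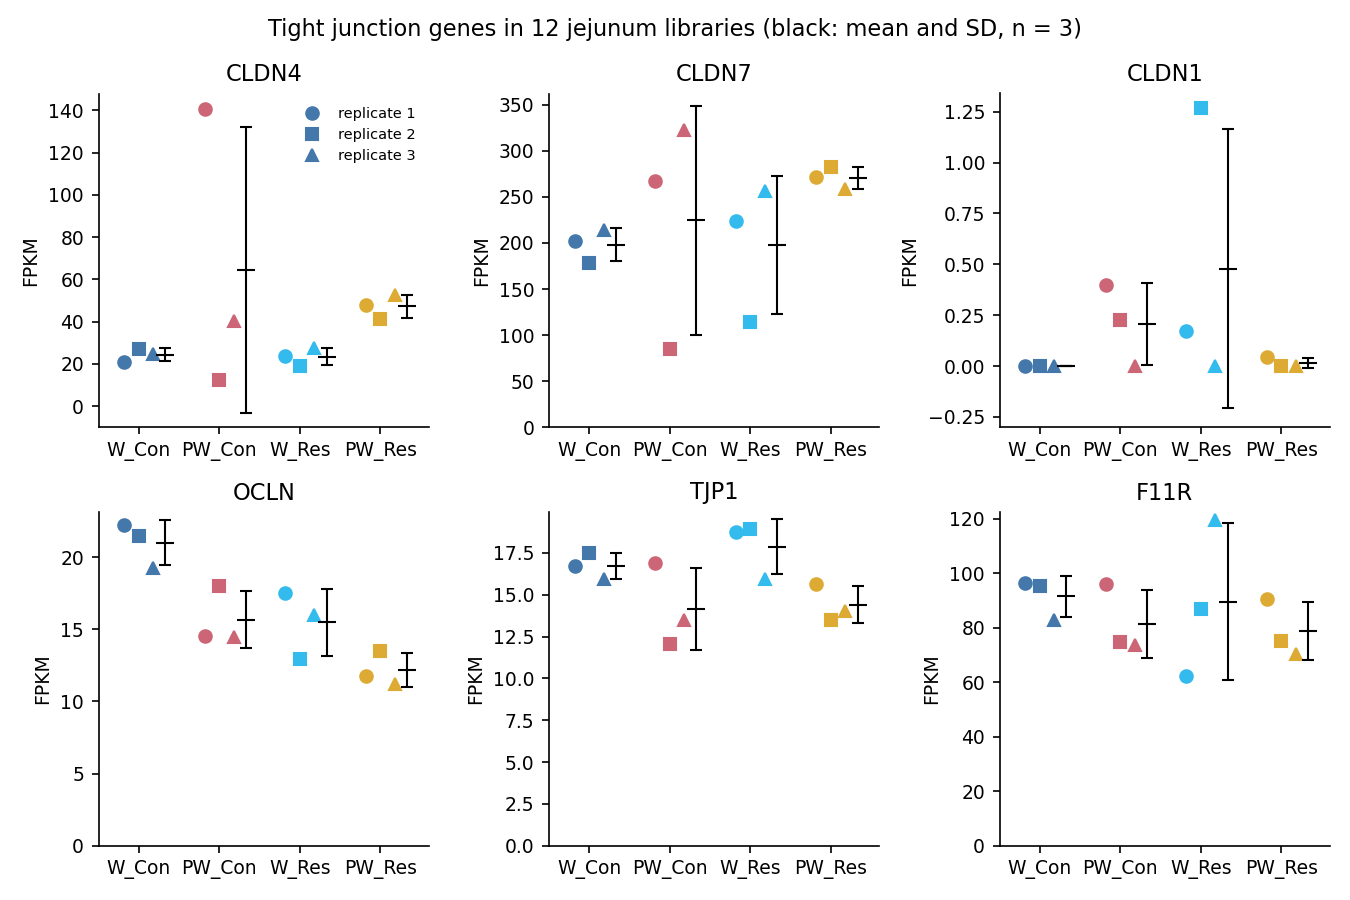
FPKM of the 6 matched tight junction genes in each library, by group. Each symbol is 1 piglet, shapes give the replicate number, and the black bar is the mean ± SD (n = 3). CLDN4 and CLDN7 spread widest in PW_Con, and OCLN stood highest in W_Con and lowest in PW_Res.

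CLDN4, a sealing claudin, was at similar levels in all sucking piglets and higher in 5 of 6 weaned piglets than in any of them. In W_Con it was 21.0, 27.1 and 24.5 FPKM, and in W_Res 23.9, 19.0 and 27.4 FPKM. In PW_Con it was 141, 12.2 and 40.2 FPKM, so that this group held both the highest and the lowest value of the series. In PW_Res it was 47.9, 41.4 and 52.4 FPKM, all above the W_Res libraries.

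The question of whether weaning altered tight junction genes was tested with limma on log2(FPKM + 1), in which a fold change understates that of genes with low FPKM. "Rose" and "fell" are used here only where the Benjamini-Hochberg adjusted p over all genes was under 0.05. The paper's standard, an unadjusted P under 0.05 with a log2 fold change above 1 or below -1, is given beside it. None of the 5 genes tested passed the adjusted threshold or the paper's standard in any of 7 comparisons, and the results below are given with their unadjusted P where it was under 0.05. The row ENSSSCG00000021536, which lies where RefSeq places CLDN3, is not among these 5. That row met the paper's standard for weaning in control litters (1.27) and for the difference of the weaning effect (-1.08), and not the adjusted threshold. Of all genes, the share that met the paper's standard was 3.31% for weaning in control litters, 4.75% in resveratrol litters, 1.42% averaged and 7.76% for the difference of the weaning effect, and 4.47%, 1.81% and 0.939% for maternal diet at 21 days, at 28 days and averaged. The share that passed the adjusted threshold was 0.00768% for weaning in resveratrol litters, 0.0776% averaged, 0.00808% for diet at 28 days, 0.140% for diet averaged over the ages and 0 in the other comparisons. The lowest two-sided exact permutation p with 3 piglets against 3 is 0.1.

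In resveratrol litters, the log2 fold change of CLDN4 (weaned against sucking) was 0.99 (SE 0.22, 95% confidence interval 0.48 to 1.5, unadjusted P = 0.00225, limma adjusted p = 0.311). The groups did not overlap, and the fold change lay just under the limit of the paper's standard. The smooth muscle sums did not overlap either (540 to 2657 FPKM in W_Res, 173 to 498 in PW_Res). Their part in the CLDN4 value was not tested. Leaving out each replicate gave 0.85 to 1.11. Median-of-ratios rescaling gave 1.20 and a pseudocount of 0.1 gave 1.02, which both met the paper's standard. The unadjusted P was above 0.05 when libraries were rescaled to equal pan-epithelial marker levels (0.43, limma adjusted p = 0.306), in the Ballgown model (0.59) and with all 12 libraries in the fit. In control litters the log2 fold change of CLDN4 was 0.76 (SE 0.75, interval -0.998 to 2.52, limma adjusted p = 0.647) and the groups overlapped. That value was -0.10 without PW_Con replicate 1, its highest library, and 1.61 without PW_Con replicate 2, its lowest and the one that carried the B cell genes. The part of those cells in the CLDN4 level was not tested. Averaged over both litter kinds the log2 fold change was 0.88 (SE 0.43, interval -0.07 to 1.82, limma adjusted p = 0.293, exact permutation p = 0.09). It was 0.44 without PW_Con replicate 1 and 1.298 without PW_Con replicate 2, where the unadjusted P was under 0.05, as it was under median-of-ratios rescaling (0.99).

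CLDN7, the most abundant of the genes and also a sealing claudin, did not separate the ages in control litters. It was 202, 179 and 214 FPKM in W_Con and 267, 84.9 and 322 FPKM in PW_Con. PW_Con replicate 2 was again the lowest library of the series, and the remaining PW_Con libraries were above all W_Con libraries. In W_Res it was 224, 114 and 256 FPKM, and in PW_Res 272, 282 and 258 FPKM, which did not overlap. The lowest W_Res value was that of replicate 2, which also had the highest summed smooth muscle markers (2657 FPKM), and the part of that in the result was not tested.

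The log2 fold change of CLDN7 was -0.03 (SE 0.47) in control litters and 0.53 (SE 0.34, interval -0.25 to 1.31, limma adjusted p = 0.512) in resveratrol litters. It was 0.57 in control litters without PW_Con replicate 2, and 0.17 in resveratrol litters without W_Res replicate 2. Its sign in resveratrol litters was reversed by pan-epithelial rescaling (-0.05) and by the Ballgown linear model (-0.63), so no direction is given for it. Across the 12 libraries, CLDN4 and CLDN7 had a Pearson's r of 0.70, of 0.71 after the group means were removed and of 0.58 without PW_Con replicate 2. The points share libraries and tissue composition.

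CLDN1, the remaining sealing claudin, was near the floor of the table. It was listed at 0 in 7 of 12 libraries and was above 0.5 FPKM in 1, W_Res replicate 2, at 1.27 FPKM. It was listed at 0 in all 3 W_Con libraries. Its mean lay under the minimum of 0.5 FPKM, so that it was not tested.

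OCLN, the tetraspan partner of the claudins, was highest in W_Con and lowest in PW_Res. It was 22.3, 21.5 and 19.3 FPKM in W_Con and 14.6, 18.0 and 14.5 FPKM in PW_Con. All 3 weaned control piglets were below all 3 sucking control piglets. In W_Res it was 17.5, 13.0 and 16.0 FPKM, and in PW_Res 11.8, 13.5 and 11.2 FPKM, where W_Res replicate 2 lay within the PW_Res range.

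In control litters the log2 fold change of OCLN with weaning was -0.40 (SE 0.16, interval -0.78 to -0.03, unadjusted P = 0.0393, limma adjusted p = 0.259). There the unadjusted P was above 0.05 with a replicate block, without a trend and in the Ballgown model, and without W_Con replicates 1 or 2 or PW_Con replicates 1 or 3. In resveratrol litters it was -0.32 (SE 0.20, limma adjusted p = 0.519). Averaged over both litter kinds it was -0.36 (SE 0.12, interval -0.62 to -0.10, P = 0.0109, limma adjusted p = 0.164, exact permutation p = 0.01). Leaving out each replicate gave an averaged value of -0.42 to -0.32. Median-of-ratios rescaling gave -0.25 (unadjusted P = 0.0606, limma adjusted p = 0.305) and pan-epithelial rescaling -0.82 (limma adjusted p = 0.0201), so that its size depended on the scaling while its sign did not. Under pan-epithelial rescaling 3571 genes passed the adjusted threshold, so that passing it there is not particular to OCLN. The median log2 fold change of all genes tested was -0.10 in that comparison.

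By maternal diet, the log2 fold change of OCLN (resveratrol against control) was -0.42 at 21 days (SE 0.20, interval -0.89 to 0.04, limma adjusted p = 0.403) and -0.34 at 28 days (SE 0.17, interval -0.74 to 0.06, limma adjusted p = 0.534). At each age the resveratrol and control piglets did not overlap. Because both ages pointed one way, the diet difference averaged over the ages was added after these values were seen. It was -0.38 (SE 0.12, interval -0.64 to -0.12, P = 0.00802, limma adjusted p = 0.272), with an exact permutation p of 0.005. Groups that do not overlap in the same direction at both ages give that permutation p, the smallest this design allows, by construction. Because those values led to the comparison, neither unadjusted p is separate evidence for the difference. OCLN accounted for the only value at an unadjusted P under 0.05 among the 5 genes in that comparison, in which 12.3% of all genes had one. It was -0.43 to -0.32 when each replicate was left out and -0.33 (limma adjusted p = 0.61) after pan-epithelial rescaling. The summed level of 7 lymphocyte markers also differed by diet in sucking piglets, at 96.9 to 135 FPKM in W_Con and 35.7 to 54.0 in W_Res. Smooth muscle sums did not overlap there either, at 130 to 495 FPKM in W_Con and 540 to 2657 in W_Res. The epithelial marker CDH17 was lower in W_Res without overlap (log2 fold change -0.97, limma adjusted p = 0.370), whereas EPCAM, ELF3, ESRP1, KRT8 and KRT19 overlapped. The part of these markers in the OCLN difference was not tested. At 28 days the lymphocyte sums were 61.5 to 180 FPKM in PW_Con and 28.1 to 67.2 in PW_Res, which overlapped. The smooth muscle sums and CDH17 overlapped at that age too.

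**Figure D2:**
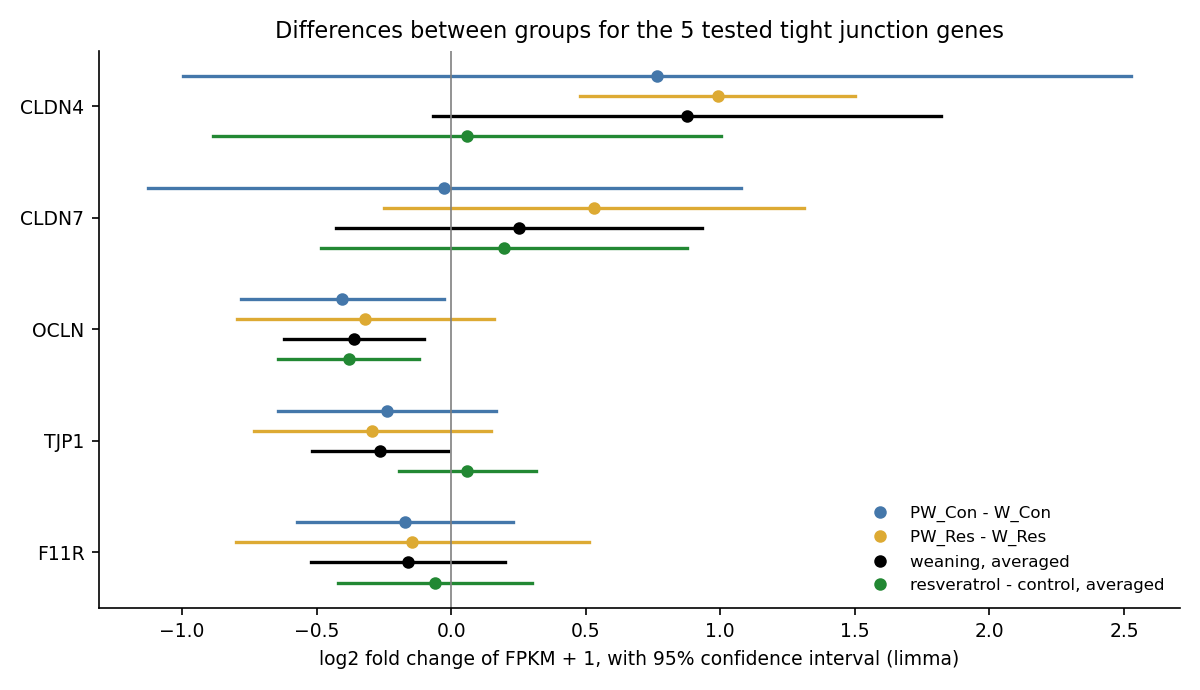
Log2 fold change of FPKM + 1 with its 95% confidence interval from limma for the 5 tested genes, in 4 comparisons. The horizontal axis is the log2 difference and colours mark the comparison. For OCLN the intervals for weaning averaged over litter kinds (-0.62 to -0.10) and for the averaged diet difference (-0.64 to -0.12) lie below 0. The averaged diet difference was added after the values at each age were seen. In both averaged comparisons the CLDN4 interval is the widest of the 5 genes.

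TJP1, the scaffold, varied little. It was 16.7, 17.5 and 15.9 FPKM in W_Con and 16.9, 12.1 and 13.5 FPKM in PW_Con. It was 18.7, 18.9 and 16.0 FPKM in W_Res and 15.6, 13.5 and 14.0 FPKM in PW_Res, where the ages did not overlap. The smooth muscle sums were also higher in W_Res (540 to 2657 FPKM) than in PW_Res (173 to 498 FPKM), and their part in the TJP1 values was not tested. The averaged log2 fold change with weaning was -0.27 (SE 0.12, interval -0.52 to -0.01, P = 0.0414, limma adjusted p = 0.245, exact permutation p = 0.02). It was -0.24 in control litters and -0.29 in resveratrol litters. Median-of-ratios rescaling, which takes out the shift of the median gene, gave an averaged value of -0.16 (limma adjusted p = 0.488). The unadjusted P was above 0.05 there, under quantile normalization, without a trend, with the row of highest mean and in the Ballgown model (-0.14), and without W_Con replicates 1 or 2, W_Res replicates 1 or 2, PW_Con replicates 2 or 3 or PW_Res replicates 2 or 3. Pan-epithelial rescaling gave -0.73 (limma adjusted p = 0.0207), a setting under which 3571 genes passed the adjusted threshold.

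F11R, the adhesion molecule, was 96.4, 95.2 and 82.8 FPKM in W_Con and 95.9, 74.7 and 73.6 FPKM in PW_Con. In W_Res it was 62.3, 86.9 and 119 FPKM, which spanned the range of the series, and in PW_Res 90.6, 74.9 and 70.3 FPKM. Ages and diets overlapped throughout. Its averaged log2 fold change with weaning was -0.16 (SE 0.16, interval -0.52 to 0.20, limma adjusted p = 0.621), which leaves room for a change of either sign. Pan-epithelial rescaling gave -0.65 (unadjusted P = 0.0209, limma adjusted p = 0.0619) and median-of-ratios rescaling -0.04 (limma adjusted p = 0.922).

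These calls were read against the share of all genes with the same call. In control litters, 1 of 5 genes (OCLN) had an unadjusted P under 0.05, against 17.7% of all genes, and 1 of 5 did not overlap between ages, against 25.3%. In resveratrol litters, 1 of 5 (CLDN4) had an unadjusted P under 0.05, against 13.3% of all genes, and 3 of 5 did not overlap, against 21.8%. CLDN4 was higher in PW_Res without overlap, a direction found for 3.93% of all genes, and TJP1 was lower, as were 17.9%. CLDN7 was the other gene without overlap, in FPKM as deposited, and its direction was reversed by the settings given above. Averaged over litter kinds, 2 of 5 (OCLN and TJP1) had an unadjusted P under 0.05, against 19.0% of all genes. At 21 days none of the 5 had an unadjusted P under 0.05 between diets, against 13.3% of all genes, and 1 of 5 (OCLN) did not overlap, against 21.0%. At 28 days the corresponding values were 0 of 5 against 10.2%, and 1 of 5 (OCLN) against 17.3%. The median log2 fold change of the 5 genes was -0.17 in control litters, where that of all genes was -0.02, and -0.14 in resveratrol litters, where that of all genes was -0.16.

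The weaning difference was not shown to depend on maternal diet for any of the 5 genes. The difference of the weaning effect between litter kinds was 0.23 for CLDN4 (SE 0.86, interval -1.66 to 2.11), 0.56 for CLDN7 (SE 0.62, interval -0.80 to 1.92) and 0.09 for OCLN (SE 0.24, interval -0.44 to 0.61), all on the log2 scale. It was -0.06 for TJP1 (SE 0.23) and 0.03 for F11R (SE 0.33). The unadjusted P from limma was 0.389 or more for each, and 13.7% of all genes had one under 0.05.

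Ratios of genes within a library do not depend on the scaling of that library. The ratio of OCLN to TJP1 was 1.21 to 1.33 in W_Con and 0.684 to 1.00 in W_Res, which did not overlap. It was 0.863 to 1.49 in PW_Con and 0.755 to 1.00 in PW_Res, which overlapped. The ratio of CLDN7 to CLDN4 was 5.98 to 9.40 in W_Res and 4.93 to 6.81 in PW_Res, and was lowest, 1.898, in PW_Con replicate 1.

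A further 56 junction gene entries were matched out of 77 on 5 lists, namely other claudins, other membrane proteins, scaffolds and polarity proteins, actomyosin, and the adherens junction and desmosome. NECTIN1 is on the last list both under its own name and under the older PVRL1, which were counted separately. With weaning averaged over both litter kinds, 50 of the 56 entries were tested, 7 were higher and 4 lower at an unadjusted P under 0.05, against 19.0% of all genes, and 1 passed the adjusted threshold. That gene was JUP, plakoglobin, which links cadherins of adherens junctions and desmosomes to the cytoskeleton. JUP was 30.3, 30.1 and 26.8 FPKM in W_Con and 68.7, 59.2 and 47.3 FPKM in PW_Con. It was 32.6, 23.4 and 31.9 FPKM in W_Res and 50.6, 68.4 and 71.0 FPKM in PW_Res, so that all 6 weaned piglets were above all 6 sucking piglets, an order found for 0.667% of all genes. JUP rose by 1.03 on the log2 scale (SE 0.15, interval 0.71 to 1.35, limma adjusted p = 0.0477). That call was close to the threshold. The adjusted p was 0.05 or more without W_Con replicates 1, 2 or 3, W_Res replicate 2, PW_Con replicates 1 or 2 or PW_Res replicates 2 or 3 (0.0241 to 0.128 over all 12 omissions). It was 0.0812 with a replicate block, 0.394 in the Ballgown model and 0.0528 to 0.0533 with a pseudocount of 0.1, no filter or no trend. The log2 fold change was 0.55 (adjusted p = 0.0299) after pan-epithelial rescaling, a setting under which 3571 genes passed the adjusted threshold.

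PKP3, plakophilin 3, a plaque protein of the desmosome, followed the same order. It was 25.8, 35.8 and 39.0 FPKM in W_Con and 85.6, 66.3 and 66.0 FPKM in PW_Con. It was 54.2, 20.6 and 42.6 FPKM in W_Res and 109, 220 and 92.4 FPKM in PW_Res, again with no overlap of the ages. Its averaged log2 fold change was 1.46 (SE 0.27, limma adjusted p = 0.0603), which met the paper's standard. It was 0.98 after pan-epithelial rescaling (limma adjusted p = 0.0244) and 0.78 in the Ballgown model (unadjusted P = 0.0603 from that model), and neither met it. Under pan-epithelial rescaling 3571 genes passed the adjusted threshold. With the row of highest mean the log2 fold change of PKP3 was 1.06 (limma adjusted p = 0.0489). On the adherens junction and desmosome list, NECTIN1 (-0.24) and PVRL1 (0.25), names of the same gene, were counted as separate entries. Of the 12 entries tested from that list, JUP and PKP3 were the only 2 with an unadjusted P under 0.05, against 19.0% of all genes. The list's median log2 fold change was 0.18 against -0.10 for all genes. KRT8 and KRT19, keratins of simple epithelia, differed the same way, by 1.04 and 1.22 on the log2 scale (limma adjusted p = 0.0629 for both). The other 4 markers of the epithelial list had smaller averaged values, 0.41 for ELF3, 0.23 for CDH17, 0.22 for EPCAM and -0.17 for ESRP1 (limma adjusted p of 0.216 to 0.725). The part of these markers in the values of JUP and PKP3 was not tested beyond the rescaling.

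Among the other membrane proteins, LSR (angulin-1), which marks contacts of 3 cells, had an averaged log2 fold change of 0.66 (SE 0.14, limma adjusted p = 0.0629). LSR was 6.74 to 7.69 FPKM in W_Con and 13.0 to 16.3 FPKM in PW_Con, without overlap, and 7.75 to 12.2 and 11.9 to 16.5 FPKM in W_Res and PW_Res. It was 0.21 (limma adjusted p = 0.225) after pan-epithelial rescaling and 0.76 (limma adjusted p = 0.0358) after median-of-ratios rescaling, and the adjusted p was 0.0495 with a limit of 5 FPKM. MARVELD2 (tricellulin), which lies at the same contacts, had an averaged value of -0.27, and CRB3, a polarity protein, 0.36, neither with an unadjusted P under 0.05. In control litters MARVELD2 was -0.54 without overlap (unadjusted P = 0.0186, limma adjusted p = 0.200), and in resveratrol litters 0.0065 with overlap (limma adjusted p = 0.994). The difference between litter kinds was 0.54 (SE 0.29, limma adjusted p = 0.428). CRB3 overlapped in control litters (0.20) and not in resveratrol litters (0.52, limma adjusted p = 0.443). For averaged weaning LSR was the only 1 of 7 genes on this list with an unadjusted P under 0.05, against 19.0% of all genes.

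Of the other claudins, 10 of 16 were matched and 4 tested. CLDN10, CLDN11 and CLDN12 had averaged log2 fold changes of -0.47, -0.39 and -0.34, with limma adjusted p of 0.264, 0.264 and 0.545, at group means of 0.303 to 4.20 FPKM. In control litters CLDN10 (-0.52) and CLDN12 (-0.51) did not overlap between the ages and had an unadjusted P under 0.05 (limma adjusted p of 0.222 and 0.260), where 25.3% of all genes did not overlap and 17.7% had such a P. In resveratrol litters both overlapped, at -0.42 and -0.18 (limma adjusted p of 0.648 and 0.900). CLDN11 did not overlap there, at -0.61 (limma adjusted p = 0.433), as was found for 21.8% of all genes. The fourth was the row of ENSSSCG00000021536, which the annotation table pairs with CLDN9. None of the 14 named rows around it is a neighbour of CLDN9 in RefSeq (Sscrofa11.1), whereas 11 of them are neighbours of CLDN3, which RefSeq places beside CLDN4. Its locus number in the table, 21991, is also close to that of CLDN4, 21995. Whether the row holds CLDN3 was not settled, and it is called here by its identifier. It was 42.5 to 55.3 FPKM in W_Con and 86.7 to 143 FPKM in PW_Con, without overlap, with a log2 fold change of 1.27 (SE 0.23, limma adjusted p = 0.117), which met the paper's standard. It was 73.8 to 101 FPKM in W_Res and 69.3 to 167 FPKM in PW_Res, which overlapped, and the averaged value was 0.73 (limma adjusted p = 0.151), the only 1 of the 4 with an unadjusted P under 0.05, against 19.0% of all genes. At 21 days it did not overlap between the diets and was higher in W_Res by 0.77 on the log2 scale (limma adjusted p = 0.344).

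The scaffold and actomyosin lists held values of both signs. Of 14 scaffold and polarity genes, SYMPK had an averaged log2 fold change of 0.29, MPDZ of -0.49 and PARD3 of -0.41, all at an unadjusted P under 0.05 and a limma adjusted p of 0.165 to 0.239. Of 13 actomyosin genes 4 had an unadjusted P under 0.05, and the share of all genes was 19.0% for both lists. ACTN4, an actin crosslinker, had 0.47 and MYH14, a non-muscle myosin, 0.39. VCL (vinculin), an actin anchor, had -0.51 (limma adjusted p = 0.115) and was highest in W_Res, at 46.8 to 65.0 FPKM against 26.5 to 40.6 in the other groups. MYLK, the myosin light chain kinase, is also on the smooth muscle list and had -1.03 (limma adjusted p = 0.242). It is named outside the rule for named genes, after its value was seen. W_Res was also the group with the highest smooth muscle sums, whose part in the VCL and MYLK values was not tested.

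**Figure D3:**
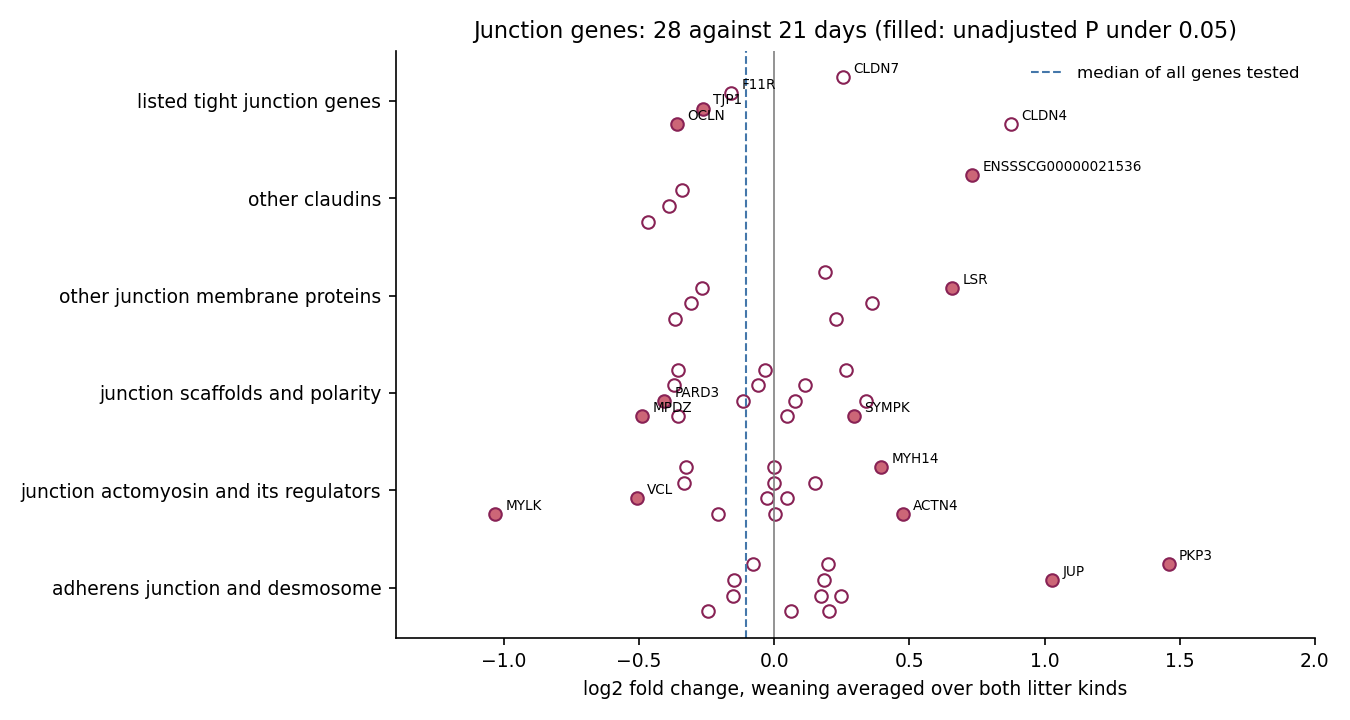
Log2 fold change with weaning, averaged over both litter kinds, for each tested junction gene by list. Each circle is 1 gene, filled circles have an unadjusted P under 0.05, and the dashed line is the median of all genes tested (-0.10). JUP (1.03) and PKP3 (1.46) stand to the right of the other genes of their list.

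The genes whose pattern over the 12 libraries was most like each tight junction gene were sought among 5313 named genes with a mean of at least 5 FPKM. For CLDN4 they were ZFP36, PML and POLB (Pearson's r 0.83, 0.80 and 0.80), and for CLDN7 they were C4orf19, MRPL55 and ZFP36 (0.93, 0.84 and 0.81). For OCLN they were CHD8, CUL1 and PLEK (0.88, 0.86 and 0.85), for TJP1 SVIL, CALU and PAM (0.95, 0.88 and 0.87) and for F11R C11orf52, YPEL5 and ZFYVE9 (0.91, 0.90 and 0.89). ZFP36 was the only gene named for 2 of them. These values describe 12 libraries that share their groups and tissue composition.

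**Figure D4:**
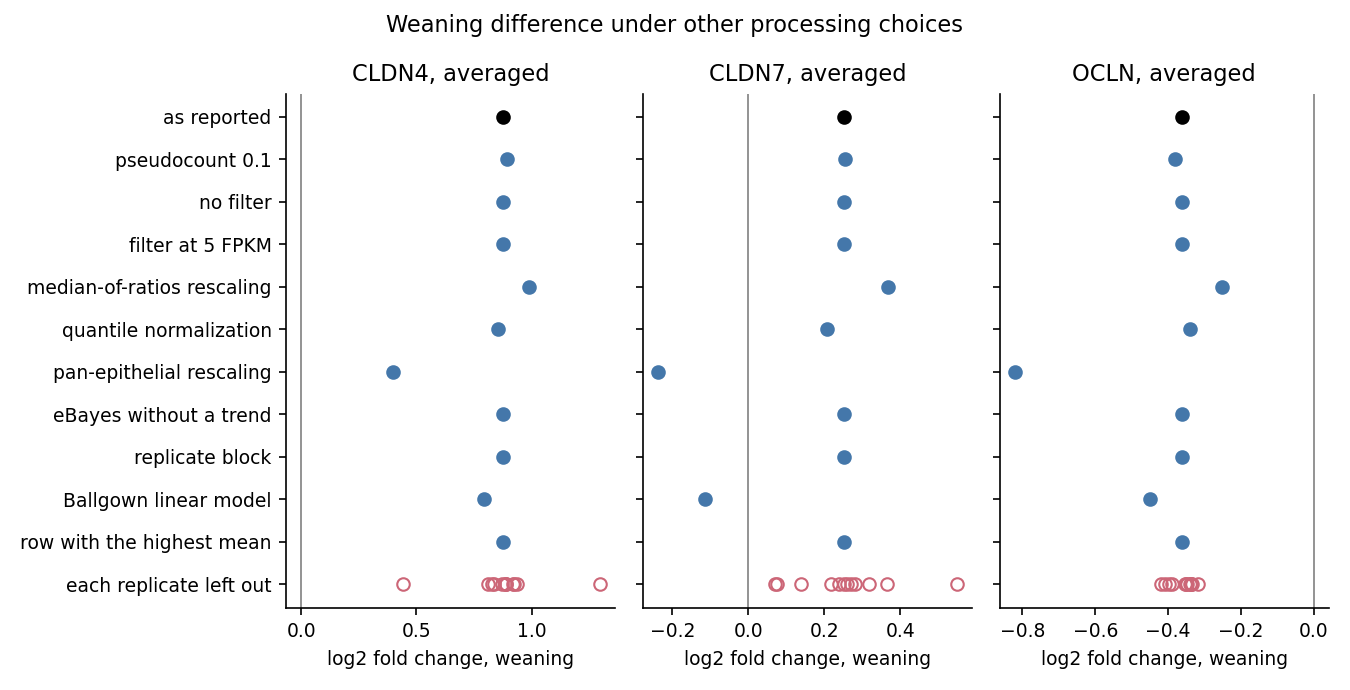
Log2 fold change with weaning averaged over both litter kinds for CLDN4, CLDN7 and OCLN, under each processing choice. Filled circles are 1 setting each and open circles leave out 1 replicate each. OCLN lay between -0.82 and -0.25 and CLDN4 between 0.40 and 1.298, and CLDN7, from -0.24 to 0.55, took both signs.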

How the data were processed

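The authors aligned paired-end reads to the pig genome (the submitters' notes name HISAT2 2.0, StringTie 1.3.0, Bowtie 0.12.2 and the builds Sscrofa10.2 and mm8, whereas the paper names TopHat) and deposited FPKM from StringTie and Ballgown for 41264 rows. The 17650 rows without a gene name were left out, with 5.48% to 8.47% of the FPKM in each library. Rows with the same name were summed. Ensembl identifiers were given symbols from the annotation table, a step beyond the gene names that added CLDN7, OCLN and TJP1. No sequence or coordinate is printed.

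Log2(FPKM + 1) was fitted with limma 3.58.1 in R 4.3.3 (lmFit, eBayes with trend) over the 12380 to 13186 genes whose mean in the fit reached 0.5 FPKM, with Benjamini-Hochberg adjustment over all of them. The method was tested on simulated data. Pairwise comparisons used their own 6 libraries, and averaged comparisons and the difference of effects used all 12. Comparisons that share groups are not independent. Each piglet is 1 library. Named beside the 9 genes were the 3 genes per list with the smallest P for averaged weaning, and any other claudin with a mean of at least 1 FPKM. A weaning effect that differed by maternal diet was sought for flagging only among these genes, and 2 were flagged. Genes, lists and markers were chosen with earlier results of these data known. Other settings tried were rescaling by median of ratios, quantiles or pan-epithelial markers, adding 0.1 in place of 1, a limit of 5 FPKM or none, the Ballgown linear model, a replicate block, eBayes without trend, all 12 libraries in a pairwise fit, the row with the highest mean, and leaving out each replicate. JUP, PKP3 and LSR, and the averaged diet comparison, were added to them after the values were seen. The level of 1 marker gene is not reported here.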

Additional observations from a re-analysis of the deposited data

Results flagged for a closer look

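The weaning effect differed between litter kinds, at an unadjusted P under 0.05, for 2 of the named junction genes, and neither passed the adjusted threshold. Only the named genes were searched for this flag. Of the 50 entries tested on the 5 further lists, 6 had a positive and 3 a negative difference at that P, against 13.7% of all genes. For ENSSSCG00000021536, the row that the annotation table pairs with CLDN9, the difference of the log2 fold changes (resveratrol minus control litters) was -1.08 (SE 0.46, unadjusted P = 0.0371, limma adjusted p = 0.334, exact permutation p = 0.13), from 1.27 in control litters and 0.19 in resveratrol litters. For NECTIN2, a cell adhesion molecule of the adherens junction, it was -0.59 (SE 0.24, unadjusted P = 0.0279, limma adjusted p = 0.314, exact permutation p = 0.03). NECTIN2 was 5.60 to 6.17 FPKM in W_Con and 7.96 to 9.09 FPKM in PW_Con, without overlap, and 6.85 to 9.82 and 7.04 to 8.61 FPKM in W_Res and PW_Res, which overlapped.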

How the results depend on the processing

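The number of the 5 genes with an unadjusted P under 0.05 was small in each comparison and moved with the processing. For weaning in control litters it was 1, with 3 under pan-epithelial rescaling, and 0 under the replicate block, eBayes without a trend or the Ballgown model. In resveratrol litters it was 1, with 2 under pan-epithelial rescaling (OCLN and TJP1, not CLDN4), 0 with all 12 libraries in the fit and 1 under Ballgown, which was OCLN. Averaged over litter kinds it was 2, with 3 under pan-epithelial rescaling (F11R in addition), 1 under median-of-ratios (CLDN4) and 1 under quantile, Ballgown, eBayes without a trend or the row with the highest mean. For diet at 21 days it was 0, with 1 under no filter, median-of-ratios, quantile or all 12 libraries, and for diet averaged over ages it was 1, with 0 under pan-epithelial rescaling. Leaving out each replicate gave 0 to 3 in control litters, 1 to 1 in resveratrol litters, 1 to 3 averaged, 0 to 1 for diet at 21 days, 0 to 0 at 28 days and for the difference of effects, and 1 to 1 for diet averaged over ages. The cause of these moves was not tested. With the settings as reported, 17.7% of all genes had an unadjusted P under 0.05 for weaning in control litters. This share was 13.3% in resveratrol litters and 19.0% averaged, and for diet 13.3% at 21 days and 12.3% averaged. Under pan-epithelial rescaling 3571 genes passed the adjusted threshold for averaged weaning. The share of all genes in each other setting is not given here, so the counts above are not read as results about the 5 genes.

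Signs changed as follows. For CLDN7, weaning in resveratrol litters was -0.046 under pan-epithelial rescaling and -0.63 under Ballgown, and the average -0.24 and -0.11. F11R in resveratrol litters was 0.070 under median-of-ratios and 0.012 under Ballgown. The difference of effects was -0.058 for CLDN7 (Ballgown), -0.071 and -0.064 for OCLN (pan-epithelial, Ballgown), 0.13, 0.016 and 0.15 for TJP1 (median-of-ratios, quantile, Ballgown) and -0.11 and -0.14 for F11R (quantile, pan-epithelial). Diet at 21 days was 0.080 and 0.21 for CLDN4 and 0.057 and 0.48 for CLDN7 (pan-epithelial, Ballgown), -0.0049 and -0.0086 for TJP1 (median-of-ratios, Ballgown) and 0.062 for F11R (pan-epithelial). Diet at 28 days was 0.055 and 0.21 for F11R (median-of-ratios, Ballgown).

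Leaving out a replicate gave, for weaning, -0.10 to 1.61 (CLDN4) and -0.39 to 0.57 (CLDN7) in control litters and -0.38 to 0.086 (F11R) in resveratrol litters. The difference of effects ran from -0.62 to 1.09 (CLDN4), -0.037 to 0.92 (CLDN7), -0.030 to 0.18 (OCLN), -0.16 to 0.070 (TJP1) and -0.21 to 0.26 (F11R). Diet ran from -0.17 to 0.082 (CLDN4), -0.31 to 0.28 (CLDN7) and -0.31 to 0.16 (F11R) at 21 days, from -0.67 to 1.04 (CLDN4), -0.12 to 0.84 (CLDN7), -0.067 to 0.16 (TJP1) and -0.15 to 0.074 (F11R) at 28 days, and from -0.36 to 0.49 (CLDN4), -0.098 to 0.38 (CLDN7) and -0.18 to 0.055 (F11R) averaged over ages.

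Same-numbered replicates did not deviate together in every pair (correlations from -0.30 to 0.14), and the replicate numbers were not taken as pairs. This does not show whether piglets shared litters. The paper took a piglet from each litter at each age, so the control libraries of both ages could share litters that the labels do not name. With the replicate block the control-litter count went from 1 to 0. Over all genes, the number with an adjusted p under 0.05 for averaged weaning was 10, and 0 to 3571 under the alternatives. The share of CLDN2 and CLDN15 in all claudin FPKM, a planned value, could not be computed. FPKM hold no counts, so counting error was not computed, and read totals were not used here.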
